A study of Mus musculus with 55 samples.

Results

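Dimethylation of lysine 4 on histone H3 (H3K4me2) was compared between mouse lung tumours of the genotypes PRMK and PRM. The 4 H3K4me2 libraries, 2 of PRMK and 2 of PRM, were chosen by antibody, tissue and genotype from the 55 samples of the series. Their deposited peaks, those sharing at least 1 bp joined, gave 36088 union regions, and every region was followed in all 4 libraries. The tumours grew from edited mouse lung organoids that were injected into the left lung lobe of recipient mice, and tumour organoids were harvested from the recipients. All 4 samples carried guides against Trp53 and Rb1 and a plasmid expressing Myc with luciferase, and PRMK carried a further guide against Kmt2c. PRMK library 1 also lists a guide against Meis2 and PRMK library 2 a scrambled guide, so each PRMK library has a companion plasmid of its own and PRM has none. Nothing in the labels ties replicates to separate animals, so p-values measure only the spread between these samples, and the share of edited cells is not given.

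H3K4me2 marks the flanks of active gene starts and many enhancers, and it lies between the monomethyl form typical of enhancers and the trimethyl form typical of active starts. KMT2C, also called MLL3, is a methyltransferase that chiefly places the first methyl group at enhancers. Trp53 and Rb1 are tumour suppressors whose joint loss, with high Myc, models small cell lung cancer, a neuroendocrine tumour.

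Sequences around 6 gene starts are shown because the results below turn on them: Hoxb4, Fgf9 and Tshz3 had H3K4me2 in both PRMK libraries and neither PRM library, Agt the reverse, and Meis1 and Nkx2-1 had it in all 4 with opposite differences. Each runs from 250 bases before to 50 after the RefSeq start on GRCm38.p6 (the coordinates of mm10), 5′ to 3′ on the gene's strand, and capitals mark CG dinucleotides, the sites of DNA methylation.
Hoxb4 (chr11:96318017-96318316, plus strand): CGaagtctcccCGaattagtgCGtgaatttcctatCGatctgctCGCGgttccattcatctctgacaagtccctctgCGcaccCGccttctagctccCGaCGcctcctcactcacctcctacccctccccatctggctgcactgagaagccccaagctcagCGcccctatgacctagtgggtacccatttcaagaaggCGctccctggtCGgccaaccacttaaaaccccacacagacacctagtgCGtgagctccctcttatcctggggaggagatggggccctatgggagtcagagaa
Fgf9 (chr14:58072436-58072735, plus strand): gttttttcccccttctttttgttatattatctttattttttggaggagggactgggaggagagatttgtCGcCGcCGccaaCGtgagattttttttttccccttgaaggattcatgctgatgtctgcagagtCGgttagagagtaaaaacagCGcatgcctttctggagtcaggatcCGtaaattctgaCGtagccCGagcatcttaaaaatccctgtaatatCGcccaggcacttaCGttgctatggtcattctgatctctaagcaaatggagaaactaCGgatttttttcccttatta
Tshz3 (chr7:36697868-36698167, plus strand): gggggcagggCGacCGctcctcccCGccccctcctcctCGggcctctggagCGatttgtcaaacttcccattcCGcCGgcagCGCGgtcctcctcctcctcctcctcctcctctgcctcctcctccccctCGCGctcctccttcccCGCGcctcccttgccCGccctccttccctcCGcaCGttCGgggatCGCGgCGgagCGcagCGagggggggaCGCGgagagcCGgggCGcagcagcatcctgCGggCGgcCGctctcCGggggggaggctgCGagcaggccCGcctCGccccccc
Agt (chr8:124569657-124569956, minus strand): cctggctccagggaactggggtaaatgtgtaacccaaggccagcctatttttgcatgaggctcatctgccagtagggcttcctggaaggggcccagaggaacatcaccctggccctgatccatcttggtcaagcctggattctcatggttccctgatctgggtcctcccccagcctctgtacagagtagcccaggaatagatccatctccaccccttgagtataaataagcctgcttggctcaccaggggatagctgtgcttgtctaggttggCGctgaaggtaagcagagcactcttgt
Meis1 (chr11:19018920-19019219, minus strand): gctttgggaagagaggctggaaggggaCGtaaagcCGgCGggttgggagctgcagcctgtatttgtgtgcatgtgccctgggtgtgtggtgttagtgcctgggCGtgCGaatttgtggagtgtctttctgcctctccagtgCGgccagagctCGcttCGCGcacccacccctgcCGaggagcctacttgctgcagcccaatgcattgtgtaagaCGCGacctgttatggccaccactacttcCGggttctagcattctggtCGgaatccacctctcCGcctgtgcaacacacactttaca
Nkx2-1 (chr12:56536859-56537158, minus strand): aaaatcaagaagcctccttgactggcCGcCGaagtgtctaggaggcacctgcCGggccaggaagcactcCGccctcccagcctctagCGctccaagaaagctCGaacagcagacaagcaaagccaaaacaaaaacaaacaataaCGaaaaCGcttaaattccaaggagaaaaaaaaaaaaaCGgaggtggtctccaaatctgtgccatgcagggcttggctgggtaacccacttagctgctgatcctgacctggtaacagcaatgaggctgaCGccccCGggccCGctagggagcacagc
Hoxb4 held 14 CG dinucleotides in its 300 bases, Fgf9 12, Tshz3 33, Agt 1, Meis1 15 and Nkx2-1 12. Tshz3 is thus the most CG-rich of these 6 starts and Agt the poorest, while Hoxb4, Fgf9, Meis1 and Nkx2-1 lie close together.

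The 4 peak lists differed in length and in their lowest signal. They held 32410 and 23302 peaks in PRMK libraries 1 and 2, against 20164 and 23433 in PRM libraries 1 and 2, covering 121 and 102 Mb in PRMK, against 86.4 and 96.7 Mb in PRM. The lowest total signal of a listed peak was 15080 and 28253 in PRMK and 47954 and 29668 in PRM. Total signal is the authors' coverage summed over a peak, given from here on in kU (kilo-units). Its scaling to depth is not given, and the depth of these libraries is unknown. PRMK library 1 thus listed the weakest peaks and PRM library 1 only strong ones. Of PRMK library 2 peaks 97.5% met a peak of PRMK library 1, the longest list, and 71.3% of PRMK library 1 peaks met one of library 2. Of PRM library 1 peaks 83.4% met a peak of PRM library 2, and 71.6% of PRM library 2 peaks met one of library 1. Over the 15152 regions with a peak in all 4 libraries, Pearson's r of log2 total signal was 0.94 within PRMK, 0.74 within PRM and 0.68 to 0.78 across genotypes, as a description across regions. PRM library 2 held 77 peaks on chromosome Y, against 15 and 13 in PRMK and 11 in PRM library 1, and their part in the results was not tested. In bulk tissue fewer cells with the mark and less mark per cell cannot be told apart. RNA was read from separate PRMK libraries 1 to 3 and PRM libraries 4 to 6, in CPM (counts scaled to library size by TMM). The summed RNA of 10 neuroendocrine markers was 4920, 3597 and 5667 CPM in PRMK, against 5566, 3087 and 124 CPM in PRM, so PRM RNA library 6 stood apart, and edgeR called 0 genes with and without it. A stranded RNA kit is named for the PRM samples only, so library preparation and genotype cannot be told apart in the RNA.

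The guided genes were read first. H3K4me2 at the Kmt2c start (chr5:25495570-25502143) totalled 129 and 163 kU in PRMK, against 141 and 182 kU in PRM. The groups overlapped: after each library was centred on its median region, PRMK minus PRM came to 0.03 on the log2 scale (SE 0.20, limma adjusted p 0.957). The Kmt2c transcript (ENSMUSG00000038056) was at 85.1, 84.4 and 105 CPM in PRMK, against 113, 187 and 67.6 CPM in PRM. Neither reading checks the edit, since a guide can break the protein without lowering the mark at the start or the RNA. The plasmids listed for the PRMK RNA samples include no Kmt2c guide, and the KMT2C peak lists were longer in PRMK, with 187682 and 134561 peaks against 9949 and 16681 in PRM. Trp53 had 253 and 345 kU in PRMK, against 264 and 330.1 kU in PRM. At Myc the totals were 282 and 351 kU in PRMK, against 356 and 385 kU in PRM (log2 fold change -0.05, SE 0.14, limma adjusted p 0.889). The highest signal at Myc was lower in both PRMK libraries, at 107 and 145, against 199 and 248 in PRM (log2 fold change -0.47, not called). The Myc transcript was at 273, 312 and 205 CPM in PRMK, against 1140, 2306 and 2059 CPM in PRM (adjusted p 0.158 in edgeR and 3.67e-10 in DESeq2), although the plasmid and the endogenous gene cannot be told apart in these counts. At the Rb1 start only PRMK library 1 listed a peak, with a total of 19098, below the lowest total of the other 3 lists. Over all 3 regions of the Rb1 gene the summed total was 85.7 and 59.4 kU in PRMK, against no peak and 58.7 kU in PRM.

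Most H3K4me2 regions that were shared by both libraries of a genotype were shared by both genotypes. Of the 36088 union regions, 15152 (42%) had a peak in all 4 libraries and are called kept. Both PRMK and neither PRM library had a peak in 2912 regions (8.07%), called gained, and both PRM and neither PRMK library in 489 (1.36%), called lost. These names describe the lists, and 2 libraries against 2 cannot give an exact permutation p below 0.333. The other 17535 regions had mixed patterns, led by 7001 with a peak in PRMK library 1 alone and 2943 in PRM library 2 alone.

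**Figure D1:**
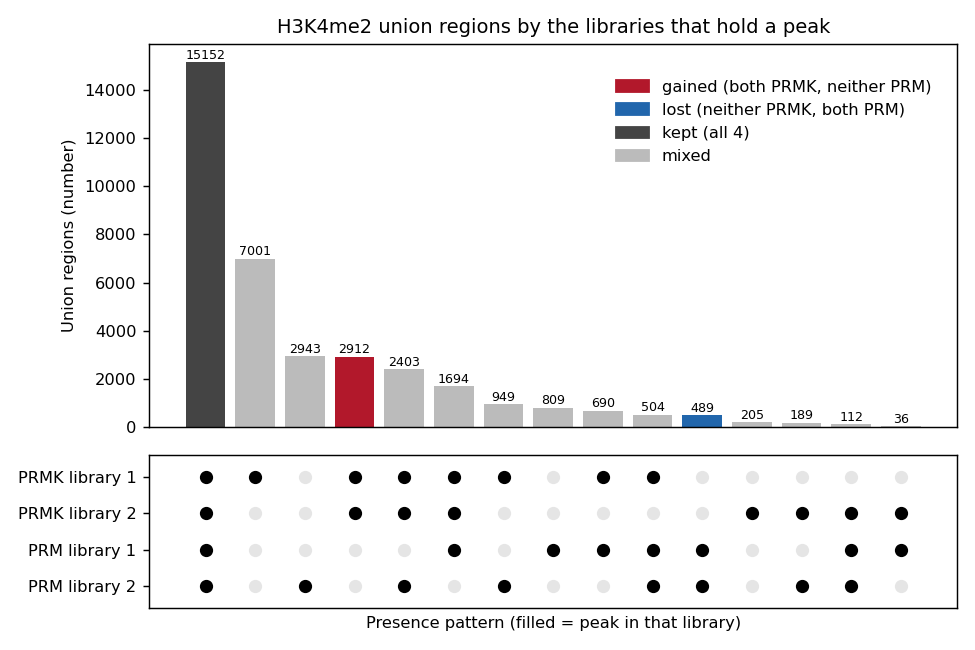
Number of H3K4me2 union regions (y axis) for each pattern of presence, with filled dots below each bar marking the libraries that hold a peak (PRMK libraries above, PRM libraries below). Regions in all 4 libraries number 15152, gained regions (red) 2912 and lost regions (blue) 489, and the second bar, 7001, is PRMK library 1 alone.

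The balance of gained over lost regions moved with the lists' lowest signal. When peaks below 47954, the highest of the 4 lowest totals, were left out of every list, a choice made after seeing the data, 791 regions were gained and 1404 lost, so the balance turned round. The cut left the PRM library 1 list whole and was the same for all lists, although their scaling to depth is not given. What part scaling plays in this turn was not tested. With each list cut to its 20164 strongest peaks, 1525 were gained and 1029 lost. Of the 2912 gained regions, 604 (20.7%) had a total of at least 47954 in both PRMK libraries, and of the 489 lost regions 320 (65.4%) had it in both PRM libraries. The 2 shares are not on equal terms. This cut is the lowest total of PRM library 1 itself, so every lost region passes it in that library. Gained regions were weak: their median total was 38212.5 and 38692 units in PRMK libraries 1 and 2, and that of lost regions was 63626 and 59291 units in PRM libraries 1 and 2. Kept regions had medians of 95972.5 and 118568 units in PRMK, against 122144.5 and 119854 units in PRM. Presence of the genes named below was therefore also read under each list setting.

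The gained region with the most signal, and the widest of all 36088 union regions, was the Hoxb cluster on chromosome 11. HOX proteins are homeobox transcription factors that set position along the body axis, and their genes lie in clusters that are switched on in blocks. A region of 89.5 kb (chr11:96268207-96357718) held 3181 and 4178 kU in PRMK libraries 1 and 2 and no peak in either PRM library. Its highest signal was 215 and 300 in PRMK. It spans the starts or ends of 8 Hoxb genes, Hoxb2 to Hoxb9, with the Hoxb4 start printed above inside it. Hoxb1 and Hoxb13, at the flanks of the cluster, had no H3K4me2 at the start in any library.

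The other marks in the same 89.5 kb came from separate libraries. H3K4me3 formed 1 peak of 87.4 kb in each PRMK library, and H3K4me1 covered 56.8 and 38.7 kb in 8 and 14 peaks. KMT2C had 37 and 32 peaks over 43.7 and 47.2 kb in PRMK. None of these 3 readouts had a peak there in either PRM library. Open chromatin by ATAC had 0 and 18 peaks in PRMK, against 1 and 0 in PRM, in lists of 593 and 54201 peaks for PRMK and 64596 and 19834 for PRM. The nearest H3K4me2 peaks of either PRM library on each side of the cluster bounded a stretch of 697 kb (chr11:96077381-96774841). By this choice the stretch held no PRM peak. In it lay 15 union regions, 10 of them gained and 5 in PRMK library 1 alone, which covered 167 and 147 kb in PRMK. Of these, 11 lay in Skap1, which encodes an adaptor protein of T-cell receptor signalling, where 8 were gained and the strongest (chr11:96589218-96603652) held 406 and 398 kU in PRMK.

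**Figure D2:**
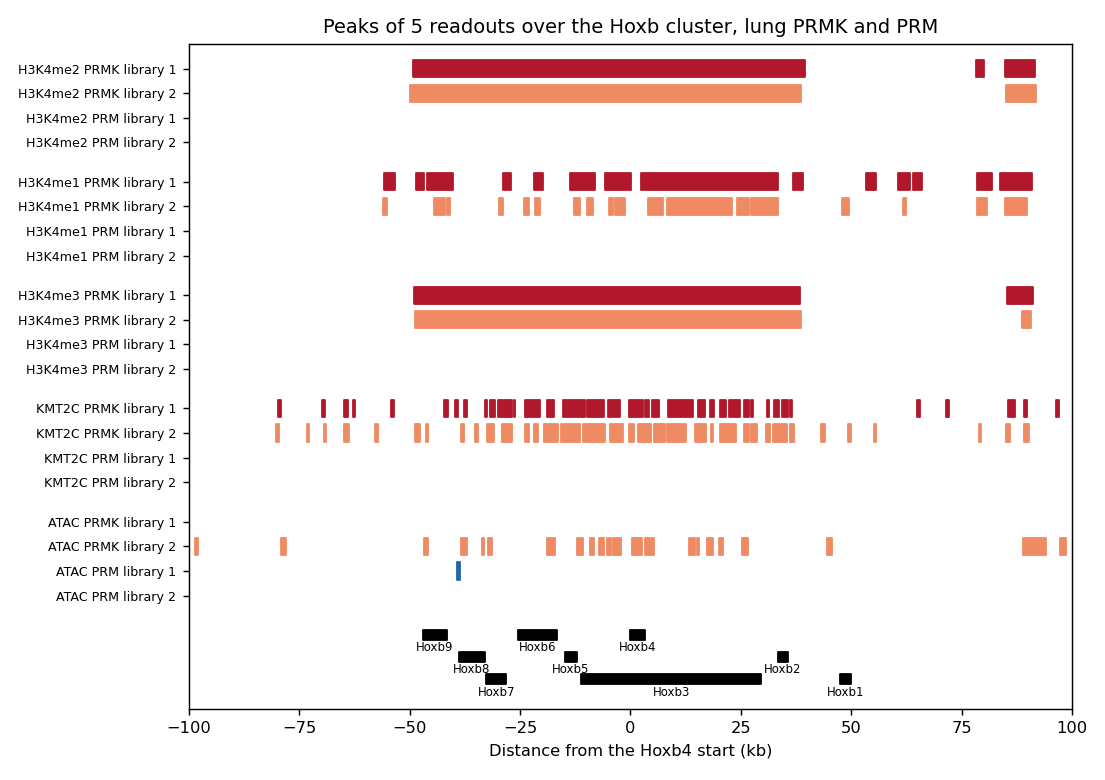
Peaks (bars) of 5 readouts by library over the Hoxb cluster, with the distance from the Hoxb4 start in kb on the x axis and the genes in black at the bottom. H3K4me2 and H3K4me3 form 1 peak of about the cluster's length in each PRMK library (88.6 and 87.4 kb in library 1), and no PRM library has a peak of H3K4me2, H3K4me1, H3K4me3 or KMT2C within the plotted window.

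Hoxb RNA was present in PRMK libraries 1 and 3 and near or at 0 elsewhere. Hoxb4 (ENSMUSG00000038692) was at 6.55, 0.835 and 47.7 CPM in PRMK, against 0.261, 0.0561 and 0.445 CPM in PRM (log2 fold change 6.19, SE 1.70, adjusted p 0.208 in edgeR and 4.2e-04 in DESeq2). Hoxb5 (ENSMUSG00000038700) was at 9.85, 0.261 and 103 CPM in PRMK and had no count in PRM, where 0 counts allow up to 0.157, 0.168 and 0.267 CPM. Hoxb6 was at 3.78, 0.313 and 51.8 CPM in PRMK and also had no count in PRM. PRMK RNA library 2 was low for all of these genes, and below the level that 0 counts allow for Hoxb2, at 3.94, 0.0522 and 10.3 CPM in PRMK. Hoxb3 spans Hoxb4 in the annotation, so reads of the 2 genes may be shared. The tumours behind the RNA libraries are not linked to those behind the H3K4me2 libraries in the labels.

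The other Hox clusters were different. None of 11 Hoxa genes had H3K4me2 at the start in any library. Of 9 Hoxc genes only Hoxc4 was gained, beside another marked in PRMK library 1 alone. Of 9 Hoxd genes 7 were marked in PRM library 2 alone. The widest Hoxd region (36.2 kb, chr2:74705784-74741965, over Hoxd3 and Hoxd4) held 1599 kU in PRM library 2, and H3K4me3 had a peak over it in both PRM libraries and in neither PRMK library. So 9 of 39 Hox genes were gained and none was lost or kept, beside 1.87% of all 21887 coding genes gained, and the Hoxb genes share 1 region.

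Gained regions lay at the start of 409 coding genes (1.87%), counting an annotated start 1 kb either side or, for 4395 genes without one in the table used, either end of the gene. The strongest after Hoxb was at Rgmb, a co-receptor for bone morphogenetic proteins, with 326 and 420.1 kU in PRMK. Neighbouring regions covered clustered protocadherins, cell-surface adhesion proteins of neurons: that over Pcdhb16, Pcdhb17 and Pcdhb18 held 280.3 and 289 kU, that over Pcdhb15 and Pcdhb16 held 185 and 181 kU, and that at Pcdhb11 held 193 and 163 kU in PRMK. Fgf9, a fibroblast growth factor of lung development, had 188 and 249.6 kU in PRMK. Tagln3, on chromosome 16, encodes a neuronal actin-binding protein and had 178 and 161 kU in PRMK. Tshz3, a zinc finger transcription factor, had 155 and 178 kU in PRMK. None of these had a peak in PRM. All kept this pattern when peaks were joined within 500 bp or had to cover 50% of the region. They also kept it when lists were cut to equal length, to the stronger part or to a common lowest signal. These regions were chosen as the strongest gained ones, and a cut cannot add a PRM peak, so this outcome was largely fixed by the choice.

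The H3K4me3 lists, from other libraries, split these genes. Peaks of H3K4me3 lay in both PRMK and neither PRM library at Tagln3, Tshz3, Pcdhb11 and the region over Pcdhb16 to Pcdhb18. At Fgf9 and Pcdhb15 H3K4me3 was also listed in 1 PRM library, and at Rgmb in both. The RNA of Rgmb was at 25.2, 29.0 and 13.9 CPM in PRMK, against 33.4, 11.5 and 19.6 CPM in PRM, so the groups overlapped. Tagln3 was at 89.9, 145 and 63.4 CPM in PRMK, against 129.7, 162 and 0.178 CPM in PRM, where the RNA of 2 libraries was as high as in PRMK. Pcdhb15 was at 6.75, 6.47 and 8.44 CPM in PRMK, against 1.36, 1.63 and 0.267 CPM in PRM, with no overlap (log2 fold change 2.71, SE 0.72, adjusted p 0.207 in edgeR and 0.00157 in DESeq2). Pcdhb11 was at 6.31, 8.30 and 4.56 CPM in PRMK, against 1.93, 0.897 and 0.0890 CPM in PRM. Pcdhb18, in the same gained region as Pcdhb16, was at 4.30, 4.44 and 5.27 CPM in PRMK, against 5.65, 6.33 and 1.60 CPM in PRM, and the groups overlapped. The protocadherin copies are near-identical in part, so reads may be split among them. Tshz3 was at 12.7, 10.96 and 13.98 CPM in PRMK, against 0.575, 0 and 6.41 CPM in PRM, and Fgf9 was below 3 CPM in all 6 libraries.

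**Figure D3:**
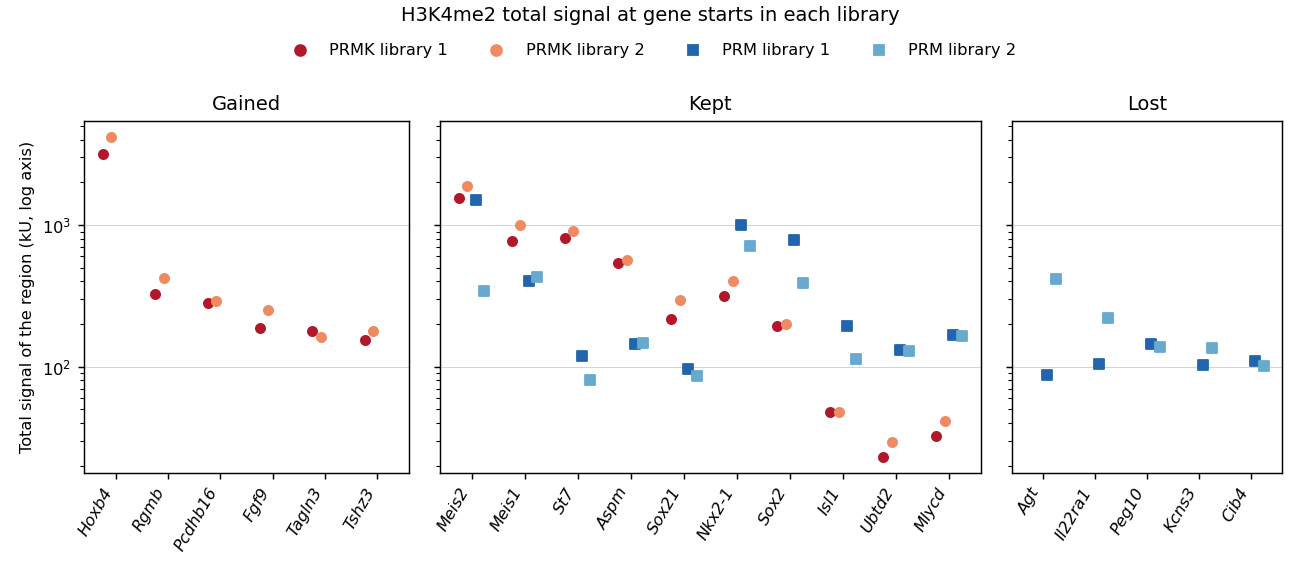
Total H3K4me2 signal (kU, log axis) of named regions at gene starts in PRMK library 1 and 2 (circles) and PRM library 1 and 2 (squares), for gained, kept and lost regions. A missing point means that the library lists no peak. Hoxb4 stands for the Hoxb region at 3181 and 4178 kU in PRMK, and Agt shows the spread within PRM, 87.4 and 414 kU.

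Lost regions lay at the start of 42 coding genes (0.192%). Agt, the precursor of angiotensin, lies on chromosome 8 and had 87.4 and 414 kU in PRM and no peak in PRMK. Il22ra1, a subunit of the interleukin-22 receptor, had 104 and 222 kU in PRM, and Kcns3, a potassium channel subunit, 103 and 136 kU. Peg10 and Sgce, neighbouring imprinted genes expressed from the paternal copy, shared a region of 144 and 137 kU in PRM. Vwc2, which encodes a secreted protein with von Willebrand factor type C domains, had 206 and 62.1 kU in PRM. H3K4me3 was listed in both PRM and neither PRMK library at Il22ra1, Kcns3, Vwc2 and Peg10, and in PRM library 2 alone at Agt. H3K4me1 ran the other way at Agt, listed in both PRMK and neither PRM library. At Il22ra1 it was listed in all 4 libraries, and at Kcns3, Vwc2 and Peg10 in none. KMT2C was listed in all 4 at Agt and Il22ra1, in all but PRMK library 2 at Peg10, and in none at Kcns3 and Vwc2. Agt RNA was at 12.5, 24.4 and 3.13 CPM in PRMK, against 2.51, 0.112 and 1.51 CPM in PRM, with no overlap. Vwc2 RNA was at 1.33, 12.5 and 0.317 CPM in PRMK, against 0.0523, 0 and 0 CPM in PRM (DESeq2 adjusted p 0.00259, not tested by edgeR). Both were thus at higher RNA levels in the genotype without a listed H3K4me2 peak. Sgce was at 12.1, 2.56 and 36.1 CPM in PRMK, against 48.9, 58.0 and 13.9 CPM in PRM, and the groups overlapped. Agt and Vwc2 were left with 1 PRM library when only the stronger part of each list was used, and Vwc2 also when peaks had to cover 50% of the region.

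Gained and lost regions were mostly away from gene starts. Of gained regions 16.5% lay at a start, of lost regions 10.2%, of kept regions 69.5% and of all union regions 36.8%. Inside genes but away from starts lay 50.4% of gained, 45.0% of lost and 16.8% of kept regions, and 33.1%, 44.8% and 13.7% lay outside genes. Gained regions were narrow, with a median width of 3225 bp, against 3712 bp for lost and 5150.5 bp for kept regions. Only 22 gained regions were wider than 10 kb, against 1501 kept ones. Starts with a gained region were poorer in CG dinucleotides than starts with a kept region. The median number in the 300 bases around the start was 12 over 374 gained starts, 11 over 46 lost starts, 22 over 11688 kept starts, 3 over 7375 starts without H3K4me2 and 13 over all 21263 starts. So Hoxb4 and Fgf9 stood near the gained median and Tshz3 above the kept one. The letters TGACAG, a core motif of MEIS factors searched on both strands, occurred in 18.7% of gained and 18.7% of all starts.

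In kept regions the signal differed little at the median and no region was called. The limma test on centred log2 total signal called 0 of 15152 regions (0%), the lowest adjusted p was 0.106, and 2617 regions passed 0.05 before adjustment, 1086 of them with more signal in PRMK and 1531 with less. On simulated data the test recovered 0 of 70 regions changed by a log2 of 1 and 32 of 70 at a log2 of 2. At a log2 of 4 it recovered 48 of 60. The simulation shuffled the residual spreads among regions, so it did not keep their link to signal and these counts are a rough guide. The highest signal in place of the total gave 169 called regions and no centring 1435. Leaving out PRM library 1 gave 3502 called regions and leaving out PRM library 2 gave 1968, with the lone PRM library assumed to vary like the PRMK pair. Both PRMK libraries were above both PRM libraries in 3901 kept regions (25.7%) and below both in 3707 (24.5%). With a 2-fold difference or more, 418 (2.76%) were higher and 907 (5.99%) lower.

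Total signal sums over a peak's length, so the choice of these regions by total signal favours longer and taller peaks on the higher side, and their lengths and heights are a description. In the 418 higher regions the covered length had a median of 7.21 and 6.98 kb in PRMK, against 4.16 and 3.52 kb in PRM. The median log2 difference was 1.23 in total signal, 0.67 in covered length and 0.80 in highest signal. The 907 lower regions had medians of 3.04 and 3.16 kb in PRMK, against 4.13 and 4.44 kb in PRM, and median log2 differences of -1.27 in total, -0.53 in length and -1.03 in height. The lists' lowest signals differed as well, and their part in these lengths was not tested.

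The start regions with the lowest p and higher signal in PRMK also covered more bases in PRMK, and all had an adjusted p of 0.106 by limma. A region of St7, a candidate tumour suppressor, had 804 and 905 kU in PRMK, against 118 and 80.9 kU in PRM (log2 fold change 3.30, SE 0.22). Peaks of this region (chr6:17744125-17768158) covered 22.4 and 24.03 kb in PRMK, against 3.82 and 3.67 kb in PRM. Another St7 region at a gene start (chr6:17691484-17697579) was mixed, with 45.5 and 91.4 kU in PRMK, against no peak and 73.8 kU in PRM. Aspm, a spindle protein needed in dividing neural progenitors, had 539 and 566 kU in PRMK, against 146 and 148 kU in PRM (log2 fold change 2.09, SE 0.16). At Aspm the highest signal did not separate the groups, at 104 and 132 in PRMK and 130 and 143 in PRM, and per covered base the log2 fold change was -0.29. Aspm peaks covered 19.6 and 18.6 kb in PRMK, against 3.54 and 3.39 kb in PRM. Sox1 and Sox21, transcription factors of neural progenitors, had log2 fold changes of 1.90 (SE 0.15) and 1.66 (SE 0.16) in H3K4me2. Log2 fold changes were 2.05 at Pag1, 1.88 at Galr3 and 1.47 at Glis2. Glis2 lies on chromosome 16, Sox1 on chromosome 8 and Sox21 on chromosome 14. Per covered base, Sox21 (-0.04) and Glis2 (-0.30) turned negative like Aspm.

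Lower signal in PRMK was led by regions that included Ubtd2, Mlycd and Fzd8, again with an adjusted p of 0.106 each by limma. Ubtd2 had 23.2 and 29.6 kU in PRMK, against 132 and 129.8 kU in PRM (log2 fold change -2.14, SE 0.21). Fzd8, a Wnt receptor, had 54.9 and 67.6 kU in PRMK, against 299 and 239.8 kU in PRM. Mlycd, Ldhd and Dnajb1 of these lay on chromosome 8, and Gch1 and Nr1d2 on chromosome 14. Gch1, which starts tetrahydrobiopterin synthesis, had 46.8 and 60.001 kU in PRMK, against 227 and 190.0 kU in PRM, while its RNA was at 87.5, 110.0 and 98.1 CPM in PRMK, against 60.4, 35.7 and 41.5 CPM in PRM.

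Kept regions on 4 chromosomes stood apart from the rest. The median log2 fold change was -0.92 over 466 regions of chromosome 14 and -0.80 over 785 of chromosome 8, while it was 0.61 on chromosome 19 and 0.37 on chromosome 16 and within 0.17 of 0 on every other chromosome tested. On chromosomes 8 and 14 both PRMK libraries were low, at medians of -0.57 and -0.58, and of -0.82 and -0.86, on the centred log2 scale. On chromosome 19 it was PRM library 2 that stood apart, at -0.77, and on chromosome 16 PRM library 1, at -0.43. Chromosomes 8 and 14 held 260 (28.7%) and 215 (23.7%) of the 907 lower regions. Gained regions made up 4.02% and 4.17% of union regions on chromosomes 8 and 14, against 12.6% and 13.1% on chromosomes 16 and 19, beside 8.07% of all. Lost regions made up 3.67% and 3.06% on chromosomes 8 and 14, against 0.392% and 0.431% on chromosomes 16 and 19, beside 1.36% of all. Median RNA log2 fold changes were -0.18 on chromosome 8 and 0.21 on chromosome 14. Both lay within the range of the other chromosomes, from -0.28 on chromosome 13 to 0.23 on chromosome 5. With each library centred within each chromosome, a choice made after seeing the data, limma again called 0 regions, and the log2 fold change was -0.97 at Gch1 and -1.22 at Mlycd. What part the chromosome plays in single regions was not tested.

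**Figure D4:**
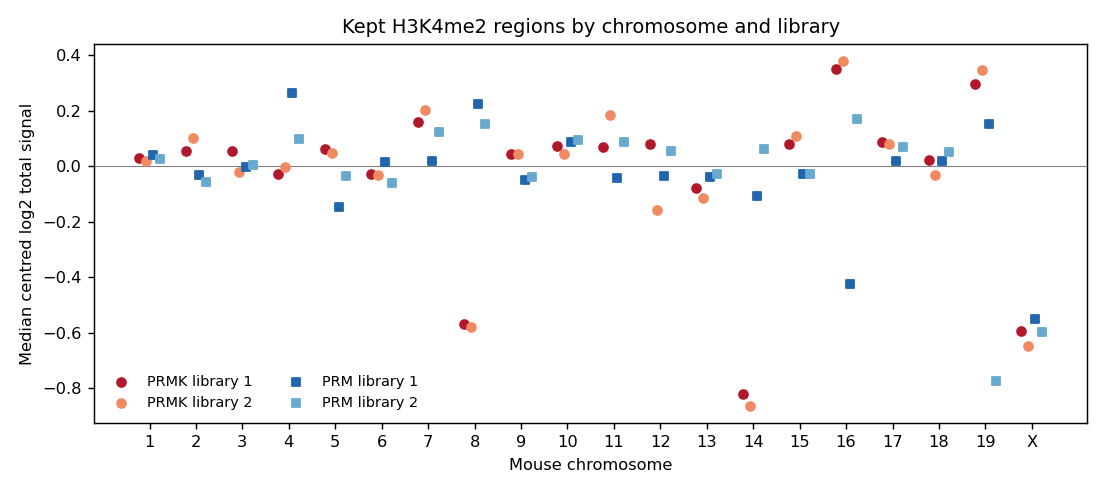
Median centred log2 total H3K4me2 signal of kept regions (y axis) by mouse chromosome (x axis), with PRMK libraries as circles and PRM libraries as squares. On chromosome 14 the PRMK libraries lie at -0.82 and -0.86 and the PRM libraries at -0.11 and 0.06, and PRM library 2 lies at -0.77 on chromosome 19.

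Meis1 and Meis2 are homeobox factors of the TALE class that bind DNA with HOX and PBX proteins. At the Meis1 start (chr11:19001411-19023756) the total was 770 and 1007 kU in PRMK, against 401 and 426 kU in PRM (log2 fold change 1.27, SE 0.15, limma adjusted p 0.106). The highest signal there did not separate the groups, at 153 and 211 in PRMK and 219 and 205 in PRM (log2 fold change 0.12). Meis1 held 11 regions in all, of which 5 were gained, 2 mixed and 4 kept, and all 4 kept ones had a log2 fold change above 1, none called. A mixed one (chr11:18961637-18966808) ran the other way, at 64.7 and 46.2 kU in PRMK, against 83.2 kU in PRM library 1 and no peak in PRM library 2. Of gained regions away from starts, the strongest by mean PRMK signal lay at the far end of Meis1 (chr11:18869881-18889536), with 554 and 630.2 kU in PRMK and no peak in PRM. Meis1 RNA was at 47.3, 32.1 and 39.9 CPM in PRMK, against 5.80, 6.90 and 15.7 CPM in PRM, with no overlap (adjusted p 0.190 in edgeR and 0.00213 in DESeq2).

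At Meis2 the PRM libraries went apart. The start region (chr2:116035646-116078822) held 1555 and 1879 kU in PRMK, against 1495 and 341 kU in PRM, and PRM library 1 was close to PRMK. Its log2 fold change of 1.44 (SE 0.71, limma adjusted p 0.386) became 2.49 without PRM library 1 and 0.39 without PRM library 2. PRMK library 1, which lists the Meis2 guide, was not lower there than PRM. Meis2 RNA was at 139, 215 and 272 CPM in PRMK, against 0.889, 1.46 and 17.3 CPM in PRM. Inside the gene 3 of 14 regions were gained, the strongest with 139 and 133 kU in PRMK (chr2:115894333-115901726). All 11 TALE genes listed were kept, 7 with a log2 fold change above 0 and a median of 0.21, beside 57.7% above 0 and a median of 0.06 over the 11945 coding genes whose strongest start region was kept. Pbx3, a partner of MEIS, had a log2 fold change of 1.52 (adjusted p = 0.160 by limma) and Pbx4, on chromosome 8, -1.07 (adjusted p = 0.112).

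Neuroendocrine regulators split. Nkx2-1, a lung and thyroid lineage factor, had 316 and 401 kU in PRMK, against 995 and 712 kU in PRM (log2 fold change -1.06, SE 0.20, limma adjusted p 0.116). Sox2 had 193 and 199 kU in PRMK, against 781 and 392 kU in PRM, and Isl1 47.7 and 47.5 kU in PRMK, against 194 and 113 kU in PRM. In these 3 genes both PRMK libraries lay below both PRM libraries, with an adjusted p of 0.174 for Sox2 and 0.129 for Isl1 by limma. Foxa2, a pioneer factor of endoderm, had 1488 and 1660.1 kU in PRMK, against 1161 and 213 kU in PRM, and without PRM library 1 and PRM library 2 in turn its log2 fold change was 3.05 and 0.63. Neurog3, a proneural factor of endocrine progenitors, was gained with 74.5 and 57.4 kU in PRMK, and Neurod2 with 64.7 and 80.1 kU in PRMK, both left with 1 PRMK library when only the stronger part of each list was used. Neurod1, which defines a subtype of this tumour, had 75.5 and 77.8 kU in PRMK, against 90.3 kU and no peak in PRM. Its RNA was at 0.121, 0.731 and 0.990 CPM in PRMK, against 25.5, 104 and 11.6 CPM in PRM. Of 26 neuroendocrine transcription factors 3 were gained, none lost and 16 kept, 8 of those with a log2 fold change above 0, beside 1.87% gained, 0.192% lost, 54.6% kept and 57.7% of kept above 0 over all coding genes. The third gained, Nkx2-2, held 71.7 and 29.3 kU in PRMK and was left with 1 PRMK library when peaks had to cover 50% of the region and under each shorter list.

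Genes of the Notch and YAP group mark non-neuroendocrine states. Of 20, none was gained or lost and 16 were kept, 13 of them above 0 with a median log2 fold change of 0.36, beside the 57.7% and 0.06 over all. Housekeeping genes had 15 of 19 kept starts above 0 with a median of 0.10, and cell cycle genes 23 of 29 with a median of 0.17, shares close to that of the Notch and YAP genes. No Notch or YAP start was called. Notch1, a receptor, had 142 and 282 kU in PRMK, against 48.0 and 91.7 kU in PRM (adjusted p = 0.141 by limma). Hes1, a transcriptional repressor and Notch target, had 311 and 450.3 kU in PRMK, against 156 and 224 kU in PRM (adjusted p = 0.119 by limma), but lies on chromosome 16. Hes1 RNA was at 0.281, 0.418 and 1.07 CPM in PRMK, against 0.627, 0.841 and 5.43 CPM in PRM. Of 18 H3K4 methyltransferase and complex genes 16 were kept with a median of 0.13, and none differed by 2-fold without overlap. Of the 48 other developmental homeobox, Pax and T-box genes 2 were gained, Msx1 and Zic2, beside 1.87% of all coding genes, and Msx1 was left with 1 PRMK library in the stronger part of each list and under the common lowest signal. In the same list Gata3 (1.70) and Gata2 (1.40) were higher and Irx3 (-1.92) and Six2 (-1.16) lower in log2 signal, none called. Per covered base Gata3 was at 0.005, and Irx3 lies on chromosome 8. Of 20 imprinted genes 3 were lost, beside 0.192% of all coding genes: Peg10 and Sgce, which share 1 region, and Snrpn. Mest (1.11) and Plagl1 (1.06) were at higher log2 signal in PRMK, not called.

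The other marks were read in each region class. H3K4me1 had a peak in 67.6% and 55.9% of gained regions in PRMK, against 40.5% and 37.6% in PRM. In lost regions the order turned, at 49.1% and 32.5% in PRMK and 64.8% and 61.6% in PRM, while over all regions it was 55.8% and 43.1% against 43.7% and 40.4%. H3K4me3 lay in 31.8% and 15.7% of gained regions in PRMK, against 10.2% and 11.4% in PRM. In lost regions it lay in 1.02% and 1.23% in PRMK, against 19.02% and 56.4% in PRM. Over all regions it lay in 45.3% and 38.7% in PRMK, against 44.0% and 51.9% in PRM, so gained regions were below the level of all regions in all 4 libraries, and lost regions in all but PRM library 2. At the 480 gained regions with a gene start, H3K4me3 was at 58.5% and 40.8% in PRMK, against 25.6% and 30.0% in PRM. No library had H3K4me1 in 28.9% of gained regions, beside 36.1% of all regions, and none had H3K4me3 in 64.8% of gained regions, beside 41.4% of all.

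KMT2C had a peak in 70.3% and 67.8% of gained regions in PRMK, against 5.67% and 10.4% in PRM. Over all regions the shares were 69.9% and 67.2% in PRMK, against 19.8% and 28.7% in PRM, so in PRMK the gained regions were at the level of all regions, in PRM below it. Lost regions held KMT2C peaks at 48.5% and 43.8% in PRMK, against 24.3% and 33.7% in PRM. ATAC peaks lay in 0.172% and 26.7% of gained regions in PRMK, against 30.2% and 7.90% in PRM, and the lowest shares were in the libraries listing 593 and 19834 peaks. Over all regions the ATAC shares were 1.01% and 38.1% in PRMK, against 46.9% and 29.1% in PRM, above those of gained regions in every library. The length of each list moves with these shares, and its part in them was not tested.

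**Figure D5:**
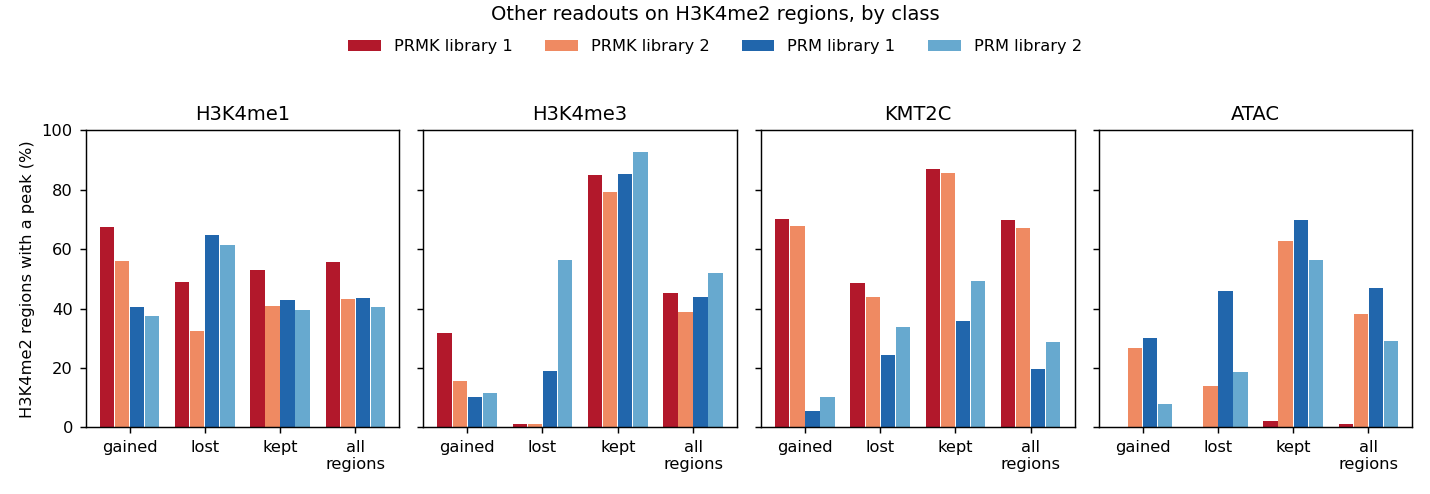
Share of H3K4me2 regions (%) with a peak of H3K4me1, H3K4me3, KMT2C or ATAC, by region class and library, PRMK bars left of PRM bars. H3K4me1 and H3K4me3 stand higher in PRMK on gained regions and higher in PRM on lost regions, and KMT2C in PRMK is near 70% on gained regions and on all regions.

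RNA of genes with a gained start was higher in PRMK at the median, but so was that of genes without H3K4me2. The edgeR test called 0 of 13914 genes (0%), with 2384 at an unadjusted p under 0.05, while DESeq2 called 591 higher (3.97%) and 684 lower (4.6%) of 14869. Without PRM library 4 edgeR called 796 genes. Of the 409 genes with a gained start 210 were tested, and 126 of these had a log2 fold change above 0, with a median of 0.48. Among 995 tested genes without H3K4me2 at the start 615 were above 0 and the median was 0.39, against 6442 of 13256 and -0.02 over all coding genes tested. Genes with a kept start (11959, 54.6% of all) had a median of -0.05, and 7596 genes (34.7%) had no H3K4me2 at the start. Of the 42 genes with a lost start 18 were tested, 13 above 0, with a median of 0.33. The medians of gained and lost starts were 0.88 and 0.73 without PRM library 4, and 0.70 and 0.11 without PRM library 6, and that of lost starts was 0.62 without PRM library 5. For gained starts it was 0.31 without PRMK library 1, 0.26 without PRMK library 3 and 0.30 without PRM library 5. Genes past the filter were a subset, 210 of 409 and 18 of 42, and low genes can pass it through 1 group alone.

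Markers were checked for the labelled tumour type and for other cells. All 10 neuroendocrine markers had H3K4me2 at the start in both PRMK libraries and in PRM library 1, and 9 in PRM library 2, where Neurod1 was missing. Of 6 immune markers 2 were marked in each PRMK library, against 1 in each PRM library. Those in PRMK were Cd68 and Spi1, and the Spi1 region lay at an end of the gene and may not be its start. Ptprc, Csf1r, Cd3e and Cd79a had none. Of 5 fibroblast markers 2 were marked in each PRMK library, against 1 and 2 in PRM, of 4 endothelial markers 1 in each PRMK library, against 1 and 2 in PRM, and of 4 hepatocyte markers 2 in each PRMK library, against 2 and 1 in PRM. Marked in at least 1 library were Apoa1 and Ttr (hepatocyte), Kdr and Tek (endothelial), and Col1a1 and Pdgfra (fibroblast), while Alb, Pecam1 and Dcn were marked in none. Summed fibroblast marker RNA was 78.6, 234 and 60.3 CPM in PRMK, against 251, 3.08 and 97.7 CPM in PRM. Summed immune marker RNA was 54.0, 51.5 and 79.3 CPM in PRMK, against 57.9, 4.60 and 10.3 CPM in PRM. Hepatocyte and endothelial sums reached at most 5.27 and 4.32 CPM. An unmarked start thus does not show that such cells were absent. Of 6 lung epithelial markers 4 and 3 were marked in PRMK, against 3 and 3 in PRM.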

How the data were processed

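H3K4me2 was measured by CUT&Tag, in which an antibody brings a transposase to the mark, in 2 lung PRMK and 2 lung PRM libraries. Per the submitters' processing notes, CUT&Tag reads were aligned with Bowtie2 to mm10 and peaks called with SEACR. Each deposited peak carries the authors' total signal and highest signal, listed per library, while their scaling, control and threshold are not given in the sources used here. Deposited ATAC lists give a score per peak, of which only positions were used, and Bowtie2 2.2.1 is named for ATAC per the submitters' processing notes. The deposited RNA values are raw counts per gene, aligned by the authors with STAR 2.6.0a per the submitters' processing notes, with totals of 12013253 to 24123055 per library. They set the precision of the RNA, and counts of 0 cover counting error only. A stranded kit is named per the labels for the PRM RNA samples only, so a difference in preparation cannot be told apart from genotype. PRM RNA columns are numbered 4 to 6.

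Peaks sharing at least 1 bp were merged. Kept regions were tested with limma 3.58.1 in R 4.3.3 on log2 total signal, centred per library, with no pseudocount and eBayes with trend, two-sided, Benjamini-Hochberg adjusted p under 0.05. RNA was tested with edgeR 4.0.16 (quasi-likelihood, TMM, edgeR's filter on low counts), with DESeq2 1.42.0 as alternative. Gene starts and sequences are from RefSeq GRCm38.p6. Of 21887 coding genes 17492 had an annotated start there, and none on chromosome 18. Tables and figures used Python 3.11.15, pandas 2.3.3, numpy 2.4.6 and matplotlib 3.10.9. The tests were checked on simulated data, where 4 of 84 limma calls and 3 of 44 edgeR calls were false. There edgeR recovered 0 of 70 genes changed by a log2 of 1, 8 of 70 at a log2 of 2 and 33 of 60 at a log2 of 4.

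Named genes were the drivers, the 8 strongest gained and 8 strongest lost regions at starts, the 8 higher and 8 lower kept regions with the lowest p, and up to 3 genes of each of 23 lists. Some genes that this rule names are not reported here. Members and lists were chosen with earlier results of these data known. Genes named from lists for a 2-fold difference without overlap, gained regions away from starts, and the regions inside Meis1, Meis2 and Skap1 were chosen after their values were seen. Alternatives covered overlap, list length, signal measure, centring, filters, the replicate block and leaving out each library.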

Additional observations from a re-analysis of the deposited data

How the results depend on the processing

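Depth is unknown for the peak lists, so a region without a peak is below that list's own threshold and not shown to lack the mark. Using only the stronger part of each list left 1370 gained, 322 lost and 7438 kept regions, equal lists 1525 gained and 1029 lost, and 1 common lowest signal 791 gained and 1404 lost. Leaving out 1 library at a time gave 3117 to 9913 gained, 601 to 3432 lost and 15264 to 17555 kept regions. The limma count of called regions, 0, became 169 with the highest signal and 1435 without centring, and 0 to 3502 with 1 library left out. It stayed 0 with per-base signal, quantile normalization, no trend, stronger regions only, centring within chromosomes and the replicate block. Same-numbered libraries deviated together with a correlation of 0.21 over kept regions, but with 2 pairs and no shared source in the labels the numbers are not taken to pair samples. Per covered base the log2 fold change turned to 0.10 at Myc, -0.29 at Aspm, -0.039 at Sox21, -0.30 at Glis2, -0.032 at Dlx2 and -0.34 at Plagl1, since their peaks differ in length. With the highest signal in place of the total, Myc was at -0.47. Leaving out 1 library put Myc between -0.12 and 0.017. Kmt2c was at -0.11 centred within chromosomes, -0.15 without centring and between -0.16 and 0.23 with 1 library left out, and a Dnmt3a region at -0.011 without centring; these values lie near 0. Of 16 kept regions named by p, 13 kept their sign in every setting. They were chosen by p in these data and the groups did not overlap in any of them. Leaving out 1 library could therefore not turn their sign, and this count is a description only. DESeq2 called 1275 genes where edgeR called 0, and edgeR called 0 to 796 with 1 library left out. The cause was not tested. A start window of 2.5 kb put 19.3% of gained and 70.4% of kept regions at a start. Where the other mark had to cover 50% of the region, H3K4me1 in both libraries of a genotype covered 40.1% of gained regions in PRMK and 30.9% in PRM, and 12.3% of lost regions in PRMK and 53.6% in PRM, and H3K4me3 covered 12.9% of lost regions in PRM. Median RNA log2 fold changes ranged from 0.26 to 0.88 for gained and 0.11 to 0.73 for lost starts with 1 library left out.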

Other observations

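Gained regions gathered inside some long genes, chosen here after their values were seen. Of 14702 coding genes with a union region 1626 held a gained one and 59 held 3 or more. Foxp1, a forkhead repressor, held 10 gained regions of 33 and none lost, with a summed total of 3030 and 4945 kU in PRMK, against 2217 and 1371 kU in PRM. Auts2, a neurodevelopmental gene, held 8 of 27, with 1319 and 1316 kU in PRMK, against 998 and 809 kU in PRM. Npas3, a neuronal transcription factor, held 7 of 26 and 1 lost region. App, the amyloid precursor, on chromosome 16, held 5 of 10, with 832 and 923 kU in PRMK, against 185 and 328 kU in PRM. Long genes hold more regions, and no share was set against gene length. Wwox, on chromosome 8, held the most lost regions, 3 of 17, with 177 and 85.8 kU in PRMK, against 648 and 600.4 kU in PRM.

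Over windows of 1 Mb, 1230 of 2392 windows with a union region held a gained region and 381 a lost one. The most gained in 1 window was 11, reached in the window of the Hoxb cluster, in that of the protocadherins on chromosome 18 and in others on chromosomes 7, 15 and 16. The most lost in 1 window was 4.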
